A study of Homo sapiens with 24 samples.

Results

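The late response of Molm-14 cells to RMC-7977 was described from 8 of the 24 samples that the labels list, by comparing the 4 libraries taken at 24 h with the 4 DMSO libraries of the same line, across 13033 genes. Molm-14 is a human acute myeloid leukaemia (AML) line of monocytic type, labelled FLT3-ITD, that is, with an internal tandem duplication in the receptor tyrosine kinase FLT3. The treated cells received 25 nM RMC-7977 for 24 h. The control cells received DMSO, the solvent, and the labels state no time for them. Both groups were grown in RPMI medium with serum, and poly(A) RNA was sequenced. A further 4 Molm-14 libraries taken 2 h after the same dose, and the DMSO and 24 h libraries of OCIAML-3, an AML line labelled NRAS Q61L, were used where the late state is set against the early one or against another line. The third OCIAML-3 library at 24 h was not analysed here, which leaves n = 3 for that group. Each line stands for a single cell model, and all libraries carry the same batch label.

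RAS proteins are membrane switches that, when loaded with GTP, start the RAF, MEK and ERK kinase cascade and also feed PI3K. FLT3 with an internal tandem duplication signals without its ligand and keeps RAS, ERK and STAT5 active in myeloid blasts. ERK switches on genes that drive growth and, at the same time, genes of the DUSP, SPRY and SPRED families that dampen the cascade again. RMC-7977 binds the GTP-loaded form of the mutant and the normal RAS proteins in a complex with cyclophilin A.

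The effective sizes of the 8 libraries, in units of 1e6 reads, ran from 15.4 to 21.7. Within each group, the log2 CPM of any pair of libraries correlated across genes with r of at least 0.993. Between the groups, r was at most 0.949. CPM is the read count divided by the effective library size in those units, and fold changes are on the scale of log2(CPM + 0.105), which understates changes at low CPM. A gene was called at a limma Benjamini-Hochberg adjusted p below 0.05 with a log2 fold change of at least 1 in either direction, and rose and fell refer to called genes. Whether replicate libraries stem from separate cultures is not stated in the labels. The SE and p-values therefore measure the spread between libraries, which may be technical. That spread was estimated in 1 fit over all 23 libraries of 6 groups, so it is not that of the 8 libraries alone. All 13 genes listed as marks of this line were measured, with a summed level of 1401 to 1464 CPM in DMSO and 2223 to 2247 CPM at 24 h. PTPRC (CD45) and CSF3R rose among them, and the other 11 were not called. Of the 13, 2 had a log2 fold change below 0, the lowest at -0.80. Markers of other cells were as follows. NKG7 was the single T and NK cell marker measured of 10, at 14.3 to 14.9 CPM in DMSO and 18.9 to 24.5 CPM at 24 h. PAX5 and EBF1, of 6 B cell markers, summed to 17.9 to 22.1 CPM in DMSO and 8.17 to 8.6 CPM at 24 h, and PAX5 fell. None of the 10 erythroid markers was measured. Of 8 platelet markers 3 were measured, with summed levels of 5.21 to 6.9 CPM in DMSO and 7.03 to 8.3 CPM at 24 h, and ITGA2B rose among them from 0.212 ± 0.143 to 1.20 ± 0.238 CPM. The single epithelial marker measured of 7, KRT18, was at 6.54 to 7.23 CPM and 6.72 to 7.28 CPM. The single stromal marker measured of 9, COL1A2, was at 0 to 0.0919 CPM in DMSO and 0 at 24 h. The defining monocyte gene CD14 was near 0 in both groups (0.107 to 0.434 CPM over the 8 libraries). The part of these markers in the results was not tested.

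At 24 h, 24 of 33 amino acid response genes, 30 of 44 ribosome assembly factors and 29 of 50 DNA replication genes had fallen. Of the Fc receptor list, which also holds the heat shock genes HSPA6 and HSPA7, 9 of 11 genes had risen. Of the FOXO target and quiescence list 20 of 31 had risen, and smaller shares of the integrin, oxidase and lysosomal lists. In all, 1481 genes (11.4%) rose and 856 (6.57%) fell. Of the calls, 63.4% were rises, a share that became 73.4% (1738 higher, 629 lower) when libraries were scaled to their totals, which shifted the median of all genes by 0.10. Large changes were mostly upward: 369 genes rose by at least 2 on the log2 scale and 50 fell by as much. The median log2 fold change over all genes was 0. At 2 h against the same DMSO libraries, 561 genes (4.30%) had risen and 389 (2.98%) had fallen. The 24 h and 2 h comparisons share their DMSO libraries, so their values are given side by side, and 24 h against 2 h was tested directly. There, 945 genes (7.25%) were higher at 24 h and 440 (3.38%) were lower. Of the genes called at 24 h against DMSO, 1087 that rose and 693 that fell had not been called at 2 h.

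**Figure D1:**
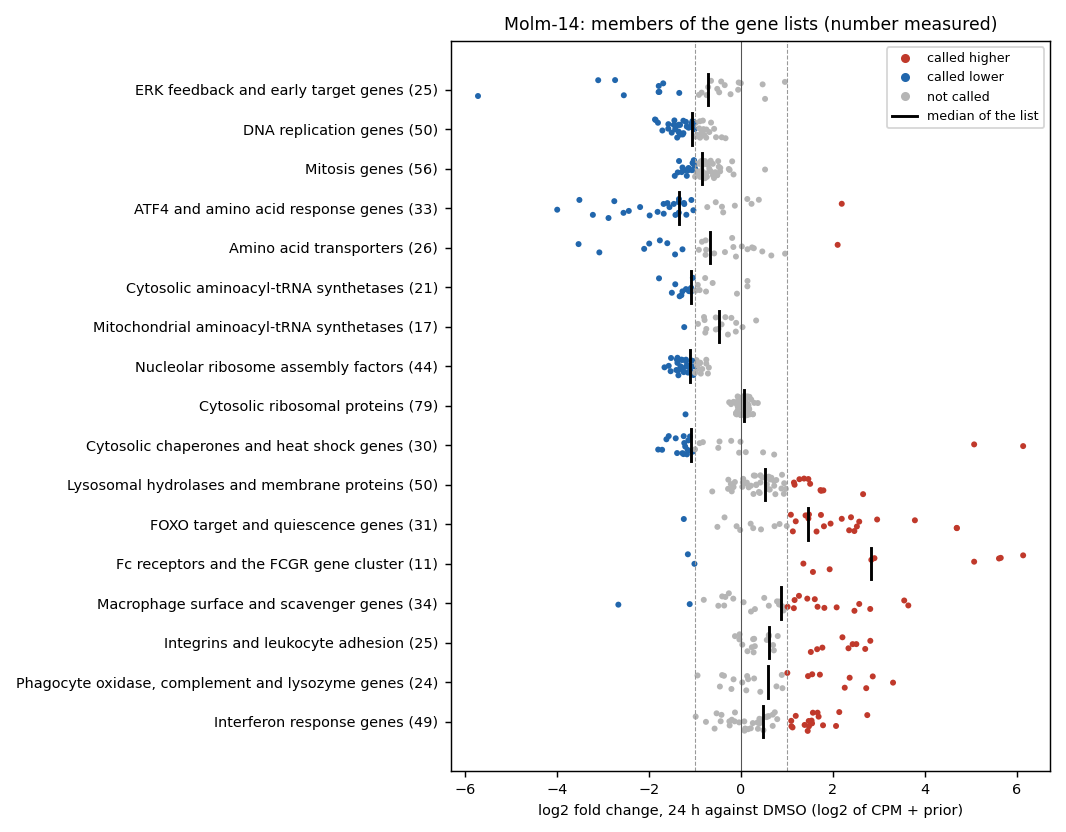
Log2 fold change at 24 h against DMSO (x axis, log2 of CPM plus the prior) of every measured member of 17 gene lists, 1 point per gene, with the number measured in parentheses; red and blue points were called higher and lower, grey points were not called, and the black bar is the median. The points of the DNA replication list all lie below 0, while those of the cytosolic ribosomal proteins sit around 0.063 and the Fc receptor list has its median at 2.83.

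Part of the ERK programme had come back by 24 h and part had not. Of 25 measured ERK feedback and early target genes, 9 were called lower than DMSO at 24 h, with a median log2 fold change of -0.71. At 2 h 19 were lower, with a median of -1.64. Among all genes, 6.57% were lower at 24 h and 2.98% at 2 h. At 24 h, 22 of the 25 had a log2 fold change below 0. In 17 every 24 h library lay below every DMSO library, as in 36.6% of all genes. Genes not called were thus not all back at the DMSO level. Against 2 h, 12 of the 25 were higher at 24 h and 1 was lower. EGR1, an immediate early zinc finger factor, was at 50.7, 54.5, 55.2 and 53.8 CPM in DMSO and at 1.20, 1.33, 0.618 and 0.696 CPM at 24 h. The groups did not come near each other, and the log2 fold change was -5.72 ± 0.20 (SE; n = 4 in each group; limma adjusted p = 1.96e-20). At 2 h EGR1 was at 1.22 ± 0.303 CPM (mean ± SD), and the difference from 24 h was not called (adjusted p = 0.12). SPRY4, an inhibitor of receptor signalling to RAS, went from 8.46 to 10.7 CPM under DMSO to 0.142 ± 0.0356 CPM at 2 h, then 0.696 to 1.61 CPM at 24 h. It was thus higher at 24 h than at 2 h (log2 difference 2.23 ± 0.19) and still far below DMSO (-3.10 ± 0.19). The ETS factor ETV4 took another course. It fell in steps, from 28.9 to 32.5 CPM under DMSO to 14 ± 1.20 CPM at 2 h, then 3.23 to 5.08 CPM at 24 h, and it was the single list member lower at 24 h than at 2 h. Its relative ETV5 was at 30.8 ± 1.81, 4.23 ± 0.371 and 8.98 ± 1.36 CPM. The D-type cyclin CCND1, which drives CDK4 and CDK6 in G1, was at 33.1 ± 1.4, 3.0 ± 0.301 and 9.51 ± 0.823 CPM.

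DUSP6, the phosphatase that removes phosphate from ERK, was within the spread of DMSO at 24 h. Its libraries read 47.0, 43.6, 42.9 and 42.1 CPM in DMSO and 40.2, 42.4, 45.0 and 42.1 CPM at 24 h. The ranges overlapped, and the log2 fold change was -0.05 ± 0.20 (adjusted p = 0.83), after 2.75 ± 0.463 CPM at 2 h. PHLDA1, another early target, likewise overlapped its DMSO range at 24 h (-0.06 ± 0.10, adjusted p = 0.59). SPRY2 had come back part of the way, from 6.07 ± 0.574 CPM at 2 h to 22 ± 2.01 CPM, with DMSO at 36 ± 1.37 CPM. MYC, which drives growth and ribosome production, was at 597 to 604 CPM in DMSO, 62.6 ± 2.98 CPM at 2 h, then 310 to 326 CPM at 24 h. Every 24 h library lay below every DMSO library, but the log2 fold change of -0.91 ± 0.04 did not reach the size set for a call. The rise of MYC from 2 h to 24 h did (2.35 ± 0.04).

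**Figure D2:**
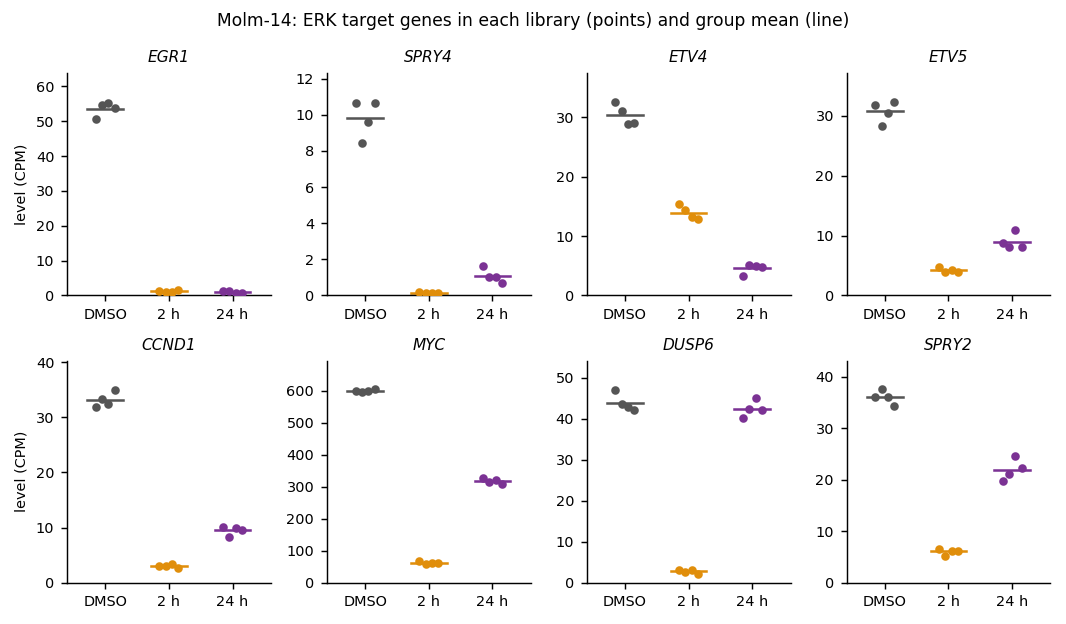
Level (CPM, linear axes from 0) of 8 ERK target genes in each Molm-14 library (points) with the group mean (line), for DMSO, 2 h and 24 h (n = 4 each). EGR1 stays near 0 at both times, ETV4 falls further after 2 h, and DUSP6 is at 42.4 CPM at 24 h beside 43.9 CPM in DMSO.

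Of the RAS proteins, NRAS (-0.19 ± 0.05) and HRAS (-0.56 ± 0.07) were not called. FLT3 itself went from 332 ± 9.31 to 504 ± 17.3 CPM (0.61 ± 0.04), also short of a call. Of 26 measured RAS proteins and RAS regulators, 4 rose and 1 fell, with a median of 0.25. Of all genes, 11.4% rose and 6.57% fell. RASGRP4, a myeloid exchange factor that loads RAS with GTP, was at 9.64 to 11.3 CPM in DMSO and 70.8 to 76.0 CPM at 24 h, with 18.3 ± 1.08 CPM at 2 h. The exchange factor SOS2 rose by 1.04 ± 0.05 and the RAS relative RRAS by 2.17 ± 0.10. RASA4, which speeds GTP hydrolysis on RAS, rose by 2.89 ± 0.11, though its reads may be split with its near copy RASA4B. DAB2IP, also a GTPase-activating protein, fell (-1.25 ± 0.21). Among 14 RAF, MEK and ERK kinases and scaffolds, 3 rose and none fell: the scaffold KSR1 (32.3 to 87.8 CPM), the ERK-activated kinase MKNK1 (33.7 to 82.3 CPM) and the kinase RPS6KA2 (0.99 to 6.19 CPM), as group means.

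In the PI3K, AKT and mTOR list, 5 of 30 measured genes rose and 2 fell (median 0.36), beside 11.4% and 6.57% of all genes. PIK3R6 and PIK3R5 encode regulatory subunits of PI3K gamma, the leukocyte form of the kinase. PIK3R6 rose from 0.062 to 0.281 CPM under DMSO to 3.15 to 4.51 CPM at 24 h, and PIK3R5 from 9.01 ± 0.967 to 26 ± 1.42 CPM. DEPTOR and CASTOR1, both inhibitors upstream of or within mTOR complexes, rose by 2.30 ± 0.19 and 2.57 on the log2 scale from below 1 CPM, and PIK3IP1, an inhibitor of PI3K, rose by 1.80. The translation repressor EIF4EBP1 (174 ± 7.87 to 54.3 ± 2.72 CPM) and SESN2, a leucine sensor, fell. Neither of the pair was called at 2 h, where EIF4EBP1 was at 131 ± 6.06 CPM and SESN2 at 63.0 ± 4.66 CPM.

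In the BCL2 family, 3 of 16 measured genes rose and 1 fell, beside 11.4% and 6.57% of all genes. BMF, a BH3-only protein that promotes cell death, was at 14.1, 16, 15.2 and 13.1 CPM in DMSO and at 167, 172, 176 and 164 CPM at 24 h. It had reached 81.5 ± 2.45 CPM at 2 h, then went on rising (24 h against 2 h, 1.06 ± 0.06). BBC3 (PUMA) took the other course, from 16.8 ± 1.3 CPM to 83.5 ± 7.74 CPM at 2 h, then 37.6 ± 1.75 CPM at 24 h, so that it was higher than DMSO and lower than at 2 h. BNIP3L, a mitophagy receptor, rose by 1.87 ± 0.05. PMAIP1 (NOXA) fell (-1.33 ± 0.08). BCL2L11 (BIM) differed by 0.60 ± 0.13 and its ranges overlapped (15.9 to 25.1 CPM in DMSO, 24.8 to 34.9 CPM at 24 h). Of the survival genes, BCL2 was at 102 ± 0.712 CPM in DMSO and 57.7 ± 3.45 CPM at 24 h (-0.82 ± 0.05), MCL1 differed by -0.13 ± 0.04, and BCL2L1 by -0.05 ± 0.07. None of those 3 was called.

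Many genes of the cell cycle fell by 24 h, and none of the DNA replication genes was called at 2 h. Of 50 measured DNA replication genes, 29 fell and none rose at 24 h (median -1.07), beside 6.57% and 11.4% of all genes. In all 50, every 24 h library lay below every DMSO library, a separation seen in 36.6% of all genes in that direction and in 34.7% in the other. At 2 h none of the 50 reached a call, though some had smaller differences, such as FEN1 (-0.42 ± 0.05, limma adjusted p = 1.07e-08) and MCM4 (-0.11 ± 0.03, adjusted p = 0.0046). At 24 h against 2 h, 31 were lower and none higher. Members of the MCM helicase, which unwinds DNA at forks, show the pattern. MCM6 was at 285, 267, 275 and 274 CPM in DMSO, 257 ± 4.65 CPM at 2 h, then 93.3, 94.1, 100 and 99.99 CPM at 24 h (-1.5 ± 0.04 against DMSO, adjusted p = 5.56e-25). MCM4 went from 721 to 756 CPM to 282 to 297 CPM, and the helicase cofactor CDC45 from 78.7 to 84.6 CPM to 21.9 to 24.6 CPM. PCNA, the sliding clamp of the polymerases, was at 286 ± 8.84, 280 ± 8.90 and 114 ± 5.71 CPM. The flap endonuclease FEN1 fell by 1.58 ± 0.05 on the log2 scale and the licensing factor CDC6 by 1.87 ± 0.06.

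The windows before MCM6 and PCNA are shown because they hold the letters that E2F factors, the main activators of replication genes, are known to bind. Promoter windows are those of RefSeq on GRCh38.p14, from 250 bases before to 50 after a start site (the first window listed per gene), and the 250 bases before the start are printed 5′ to 3′ on the gene's own strand. The MCM6 window is chr2:135876444-135876693 (minus strand), with TTTGGCGC in capitals at 152 and 90 bases before the start. The PCNA window is chr20:5126623-5126872 (minus strand), with capitals at 59 bases before the start, where TTTCCCGC lies on the opposite strand.
MCM6: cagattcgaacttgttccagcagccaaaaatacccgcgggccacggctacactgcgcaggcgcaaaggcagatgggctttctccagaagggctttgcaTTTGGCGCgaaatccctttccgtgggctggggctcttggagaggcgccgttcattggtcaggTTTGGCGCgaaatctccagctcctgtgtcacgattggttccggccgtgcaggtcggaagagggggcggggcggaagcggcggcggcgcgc
PCNA: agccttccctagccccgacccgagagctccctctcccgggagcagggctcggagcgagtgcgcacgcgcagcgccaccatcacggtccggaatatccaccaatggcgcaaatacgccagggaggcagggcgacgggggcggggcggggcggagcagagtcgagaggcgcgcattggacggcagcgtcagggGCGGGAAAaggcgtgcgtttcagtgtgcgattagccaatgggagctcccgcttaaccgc
Searched on both strands, TTTGGCGC was in 6 of the 43 list members with a window (14%) and in 0.66% of all 27305 promoter windows. Among windows of measured genes the share was 1.14%. Of the 26 list members with a window that fell, 5 held it, as did 1 of the 17 not called. TTTCCCGC, which shares its ends but not its centre with the first form, was in 10 of 43 (23.3%) and in 1.66% of all windows. A match says that these letters are present, and no more.

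Other genes of the cell cycle followed more than 1 course. Of 28 nucleotide synthesis genes, 13 fell (median -0.94), and 2 had fallen at 2 h. RRM2, the small subunit of ribonucleotide reductase, went from 247 ± 2.31 to 71.7 ± 2.14 CPM. Of 56 mitosis genes, 18 fell and none rose (median -0.85), none was called at 2 h, and 19 were lower at 24 h than at 2 h. Cyclin A2 (CCNA2) went from 158 to 177 CPM to 62.4 to 68.1 CPM. The count of mitosis genes that fell was 11 when libraries were scaled to their totals. CCNB1, at -1.02 ± 0.04, was among those near the threshold. Of 32 Fanconi and homologous recombination genes, 10 fell (median -0.73), among them BRCA1 (98.2 ± 2.63 to 41.7 ± 1.27 CPM) and the nuclease EXO1 (83.3 ± 3.03 to 26.9 ± 1.32 CPM). Of 25 G1 regulators, 8 fell and 2 rose at 24 h, while 3 had fallen and 3 had risen at 2 h. Over all genes, 6.57% fell and 11.4% rose at 24 h, and 2.98% fell and 4.30% rose at 2 h. Cyclin E2 (CCNE2) fell from 33.9 ± 1.28 to 7.88 ± 0.404 CPM, having been at 32.2 ± 0.768 CPM at 2 h. The phosphatase CDC25A, which activates CDK2, fell in steps (69.4 ± 2.46, 31.9 ± 1.01 and 15.9 ± 1.6 CPM). The CDK inhibitor CDKN1B (p27) differed by 0.21 ± 0.05 and was not called. CDKN1C (p57) rose from 0.104 ± 0.154 CPM to 5.46 ± 0.560 CPM at 2 h, then 4.44 ± 0.695 CPM at 24 h. In bulk RNA, fewer cells in S phase and less RNA per cell cannot be told apart.

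Amino acid synthesis and uptake showed some of the deepest falls, and most came after 2 h. ATF4 is a transcription factor that, when amino acids run short or the ER is stressed, switches on enzymes that make amino acids, their carriers and tRNA synthetases. Of 33 measured ATF4 and amino acid response genes, 24 fell and 1 rose at 24 h (median -1.35). Over all genes the shares were 6.57% and 11.4%. At 2 h 1 had fallen and 1 had risen, and 19 were lower at 24 h than at 2 h. Asparagine synthetase (ASNS) was at 136, 123, 127 and 130 CPM in DMSO and at 9.17, 12, 13.1 and 11 CPM at 24 h. No library came near the other group (-3.51 ± 0.07, adjusted p = 4.03e-27), and at 2 h the level was 103 ± 5.29 CPM. PSAT1, of serine synthesis, was at 433, 391, 397 and 398 CPM in DMSO and at 61.2, 60.5, 58.7 and 59.2 CPM at 24 h. CHAC1, which degrades glutathione, went from 12.4 to 14.3 CPM to 0.427 to 1.47 CPM, and was not called at 2 h (-0.51, adjusted p = 0.058). Cystathionine beta-synthase (CBS) fell by 2.44 ± 0.06 on the log2 scale, the alanine transaminase GPT2 by 2.55 ± 0.05, and the pseudokinase TRIB3 by 2.19 ± 0.06. ATF4 mRNA itself went from 608 ± 21.2 to 366 ± 7.63 CPM (-0.73 ± 0.04), which was not called. The list member that rose was KLHL24, from 12.9 ± 0.317 to 59.5 ± 0.85 CPM, a gene that also stands in the list of FOXO targets.

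The windows before ASNS and CHAC1, a pair of the 10 largest falls, are shown because they hold TGATGNAA, the letters of the C/EBP-ATF response element to which ATF4 is known to bind. The ASNS window is chr7:97872409-97872658 (minus strand), with the capitals at 68 bases before the start. The CHAC1 window is chr15:40953221-40953470 (plus strand), with the capitals at 209 bases before the start, on the opposite strand.
ASNS: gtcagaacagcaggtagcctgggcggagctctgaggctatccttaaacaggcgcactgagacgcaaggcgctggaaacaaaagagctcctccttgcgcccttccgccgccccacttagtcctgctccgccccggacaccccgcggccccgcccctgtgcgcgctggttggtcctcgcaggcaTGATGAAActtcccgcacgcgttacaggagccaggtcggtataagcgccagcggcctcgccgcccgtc
CHAC1: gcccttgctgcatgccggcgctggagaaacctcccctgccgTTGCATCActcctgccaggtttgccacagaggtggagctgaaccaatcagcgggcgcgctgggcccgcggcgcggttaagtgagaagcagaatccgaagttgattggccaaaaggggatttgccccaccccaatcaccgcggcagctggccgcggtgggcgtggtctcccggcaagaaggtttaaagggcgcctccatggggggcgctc
The letters were on either strand in 3.67% of all promoter windows and in 1.71% of those of measured genes. Of the 26 list members with a window, 3 held them (11.5%). Of the 17 of these that fell, 2 held them, ASNS and CHAC1, as did 1 of the 8 that were not called.

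Carriers that bring amino acids into the cell fell too, with 8 of 26 measured lower and 1 higher (median -0.67). Among all genes 6.57% fell and 11.4% rose. SLC7A5 and SLC3A2 form the carrier of leucine and other large neutral amino acids. SLC7A5 was at 904 to 1041 CPM in DMSO, 349 ± 29.6 CPM at 2 h, then 229 to 248 CPM at 24 h, so most of its fall had taken place by 2 h. SLC3A2 was at 380 ± 6.50, 224 ± 8.82 and 112 ± 4.92 CPM. SLC7A11, the cystine carrier that pairs with SLC3A2, went from 77.1 to 89.3 CPM under DMSO to 43.3 ± 2.16 CPM at 2 h, then 9.21 to 11.1 CPM at 24 h. SLC6A9, which carries glycine, was not called at 2 h (7.23 ± 0.589 CPM) and fell from 7.87 ± 1.3 to 0.605 ± 0.234 CPM at 24 h. The carrier SLC43A2 went the other way, from 19.1 ± 2.03 to 81.8 ± 2.05 CPM.

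The cytosolic and the mitochondrial tRNA synthetases, which load tRNAs with amino acids in the cytosol and in mitochondria, were counted apart. Of 21 cytosolic enzymes, 12 fell (median -1.08), none of them at 2 h. Of 17 mitochondrial enzymes, 1 fell (median -0.49), beside 6.57% of all genes. The glycyl enzyme GARS1 went from 365 to 385 CPM to 106 to 109 CPM, and the cytosolic methionyl enzyme MARS1 from 451 ± 2.81 to 159 ± 3.76 CPM. The mitochondrial member that fell was the methionyl enzyme MARS2, and its course was different. It was at 41.9 ± 2.26 CPM in DMSO, 11.6 ± 1.17 CPM at 2 h, then 17.8 ± 0.70 CPM at 24 h, so it had fallen early. The difference between the lists themselves was not tested.

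Ribosome assembly factors fell while the ribosomal proteins did not. Of 44 nucleolar assembly factors, 30 fell and none rose (median -1.11), beside 6.57% and 11.4% of all genes. This set was low from the start: 16 had fallen at 2 h (median -0.87), and none differed by a call between 2 h and 24 h. The RNA helicase DDX21 went from 986 to 1123 CPM to 318 to 368 CPM, nucleolin (NCL) from 1692 to 1979 CPM to 765 to 862 CPM, and UTP20 from 134 ± 4.86 to 45.2 ± 1.83 CPM. Of 79 cytosolic ribosomal proteins, 78 were not called and the median was 0.06. The exception was RPS26 (220 ± 18.4 to 95.3 ± 5.13 CPM), a gene with many near-identical pseudogenes with which reads can be shared.

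Protein folding genes were lower in each compartment. Of 30 ER chaperones and unfolded protein response genes, 9 fell (median -0.65), beside 6.57% of all genes. BiP (HSPA5), the main ER chaperone, was at 586 to 602 CPM in DMSO and 171 to 183 CPM at 24 h. XBP1, a factor of the unfolded protein response, was lowest at 2 h (79.0 ± 2.13 CPM, against 249 ± 10.4 in DMSO and 103 ± 3.81 at 24 h). Of 15 mitochondrial chaperones and proteases, 8 fell (median -1.06), among them HSPD1 (HSP60), from 1255 ± 33.2 to 463 ± 12.6 CPM. Of 30 cytosolic chaperones and heat shock genes, 17 fell and 2 rose (median -1.09). HSPA8, the constitutive HSP70, was at 2441, 2449, 2471 and 2460 CPM in DMSO and at 671, 683, 752 and 719 CPM at 24 h. HSP90AA1 (-1.57 ± 0.05) and its cochaperone FKBP4 (-1.71 ± 0.04) fell as well. The 2 that rose were HSPA6 and HSPA7, a stress-inducible HSP70 gene and its near-identical copy, annotated as a transcribed pseudogene. HSPA6 was at 1.73, 1.86, 1.39 and 1.98 CPM in DMSO and at 66.0, 66.6, 61.7 and 52.3 CPM at 24 h, and its level at 2 h was 1.06 ± 0.177 CPM. Reads of HSPA6 and HSPA7 may have been split between them.

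The windows before HSPA6, which rose, and HSPA8, which fell, are shown because both hold GAANNTTC, the core of the element that heat shock factor is known to bind. The HSPA6 window is chr1:161524290-161524539 (plus strand), with capitals at 180 and 69 bases before the start. The HSPA8 window is chr11:123062137-123062386 (minus strand), with capitals at 230 and 50 bases before the start.
HSPA6: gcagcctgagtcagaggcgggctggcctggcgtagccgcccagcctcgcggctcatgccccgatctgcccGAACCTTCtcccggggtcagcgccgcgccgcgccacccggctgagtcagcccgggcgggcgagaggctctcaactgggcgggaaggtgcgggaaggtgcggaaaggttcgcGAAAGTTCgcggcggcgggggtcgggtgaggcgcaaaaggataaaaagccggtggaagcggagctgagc
HSPA8: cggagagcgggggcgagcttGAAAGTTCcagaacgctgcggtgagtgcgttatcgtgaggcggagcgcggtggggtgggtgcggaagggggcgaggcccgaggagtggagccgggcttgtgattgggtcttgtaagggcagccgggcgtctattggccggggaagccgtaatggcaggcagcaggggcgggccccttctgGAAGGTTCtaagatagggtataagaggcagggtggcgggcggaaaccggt
The letters, which read the same on both strands, were in 9 of 26 list members with a window (34.6%). They were in 6.87% of all windows and in 4.69% of those of measured genes. They were in 3 of the 15 members with a window that fell and in the 1 that rose, and in 5 of the 10 that were not called.

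Genes linked to quiescence were higher. FOXO factors enter the nucleus when AKT activity is low and turn on genes that slow growth. Of 31 measured FOXO target and quiescence genes, 20 rose and 1 fell at 24 h (median 1.47). At 2 h 9 had risen. KLF2, a factor that restrains proliferation in leukocytes, peaked early: it was at 3.26 to 4.66 CPM in DMSO, 407 ± 45.2 CPM at 2 h, then 99.1 to 113 CPM at 24 h. TSC22D3 (GILZ), best known as a glucocorticoid target, was level between the times, at 12.9 ± 0.874, 190 ± 6.13 and 179 ± 4.19 CPM. TXNIP, which limits glucose uptake, rose late, from 106 ± 2.02 to 191 ± 8.19 and 588 ± 18.4 CPM. YPEL5 (9.65 ± 1.23 to 75.3 ± 1.93 CPM) and the antiproliferative gene BTG2 (14.4 ± 0.36 to 86.1 ± 5.68 CPM) also rose. Of 28 p53 target genes, 4 rose and 5 fell, beside 11.4% and 6.57% of all genes. TP53INP1 went up (2.08 ± 0.477 to 13.3 ± 1.05 CPM) and the exonuclease AEN went down (-1.24).

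**Figure D3:**
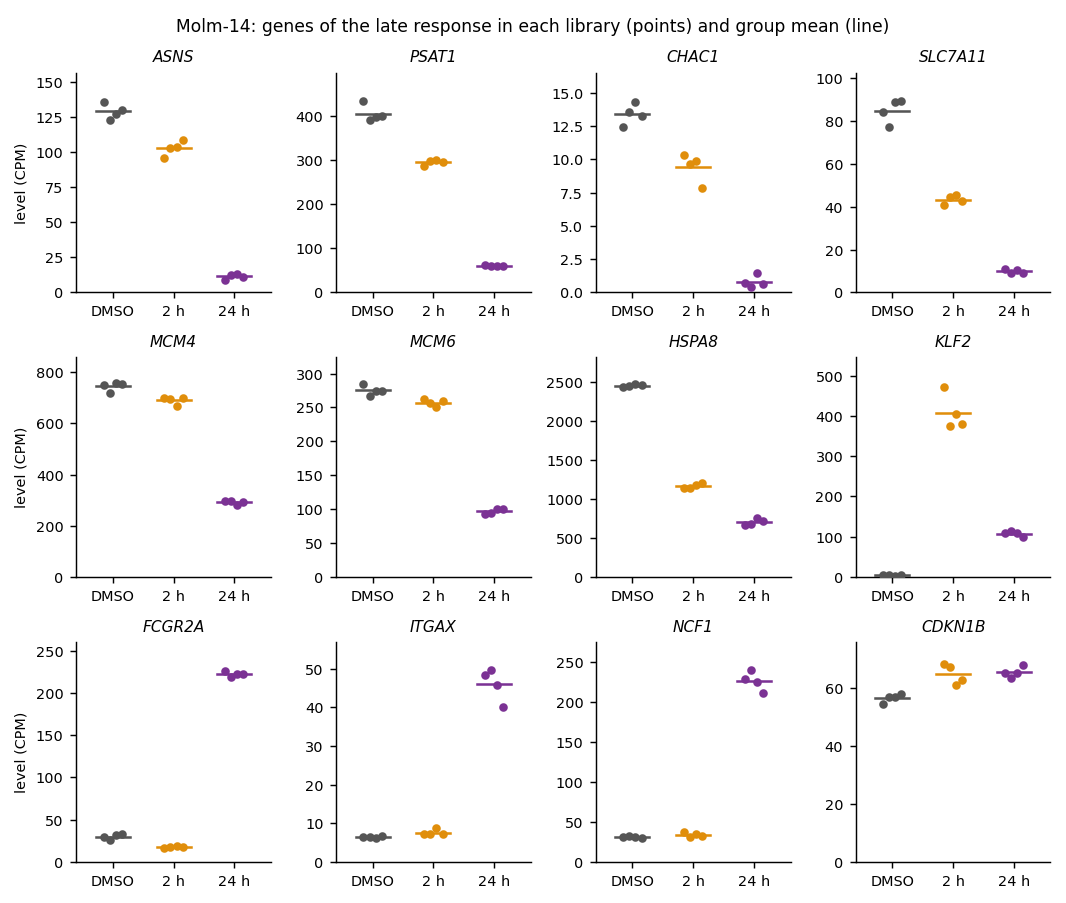
Level (CPM, linear axes from 0) of 12 genes in each Molm-14 library (points) with the group mean (line), for DMSO, 2 h and 24 h (n = 4 each). ASNS, PSAT1 and MCM6 lie between DMSO and the far lower 24 h level at 2 h, closer to DMSO, FCGR2A, ITGAX and NCF1 are high at 24 h alone, KLF2 peaks at 2 h, and CDKN1B (not called) changes little.

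Of 26 genes of glycolysis and glucose uptake, 8 rose and 1 fell (median 0.19). The glucose carrier SLC2A1 was at 26.3 to 31.4 CPM in DMSO, 29.3 ± 1.99 CPM at 2 h, then 97.2 to 102 CPM at 24 h. SLC2A3 was lower at 2 h (52.1 ± 2.68 CPM) and higher at 24 h (326 to 340 CPM) than in DMSO (105 to 108 CPM). PFKFB4, which makes an activator of glycolysis, rose by 2.19 ± 0.07. The lactate carrier SLC16A1 was the 1 that fell (186 ± 8.17 to 71.7 ± 3.52 CPM). For comparison, 11.4% of all genes rose and 6.57% fell. Of 25 genes listed with the TCA cycle, DLAT alone was called, and it fell (-1.16). DLAT is a subunit of pyruvate dehydrogenase, which feeds the cycle. Among 34 sterol and fatty acid genes, 3 rose and 1 fell, with lanosterol synthase (LSS) up from 94.1 ± 5.77 to 234 ± 7.49 CPM. Among 19 genes of cholesterol efflux and lipid handling, 4 rose, including the scavenger receptor CD36 (47.5 ± 2.86 to 114 ± 5.3 CPM) and MYLIP, which degrades the LDL receptor (2.33 ± 0.04), and FABP5 fell.

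Some lysosomal genes rose and most were not called. Of 50 lysosomal hydrolases and membrane proteins, 10 rose and none fell (median 0.51). Prosaposin (PSAP) was at 200 to 213 CPM in DMSO and 522 to 552 CPM at 24 h. The peptidase TPP1 went from 84.6 ± 6.15 to 233 ± 5.50 CPM, and cathepsin K (CTSK) from 4.18 ± 0.217 to 26.9 ± 1.93 CPM. Of 18 V-ATPase subunits, which acidify the lysosome, 2 rose, TCIRG1 (1.38 ± 0.07) and ATP6V0A1. Of 37 autophagy genes, 5 rose and none fell (median 0.33). Of all genes, 11.4% rose, a share near those of the V-ATPase and autophagy lists. The letters TCACGTGA, an E-box form bound by MiT/TFE factors, were in 5 of 33 lysosomal genes with a window (15.2%). They were in 1.04% of all windows and in 1.96% of those of measured genes. None of the 6 lysosomal genes with a window that rose held them, and 5 of the 27 that were not called did.

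The Fc receptor genes gave the steepest group of rises. Fc receptors bind antibody, and those of the FCGR2 family lie with HSPA6 and HSPA7 in a duplicated stretch of chromosome 1. Of 11 measured genes of this list, HSPA6 and HSPA7 included, 9 rose and 2 fell at 24 h (median 2.83). Over all genes the shares were 11.4% and 6.57%. None of the 11 was called at 2 h, and 9 were higher at 24 h than at 2 h, beside 7.25% of all genes. FCGR2A, the activating receptor, was at 28.9, 26.2, 31.1 and 32.7 CPM in DMSO, 17.2 ± 1.04 CPM at 2 h, then 226, 219, 222 and 222 CPM at 24 h. All treated libraries were far above all controls (2.90 ± 0.06, adjusted p = 3.64e-27). FCGR2B, the inhibitory receptor, was at 4.74, 5.36, 5.08 and 4.60 CPM in DMSO and at 259, 252, 255 and 244 CPM at 24 h (5.65 ± 0.07). FCGR2C is almost identical to parts of the other FCGR2 genes, so its rise from 3.56 to 4.32 CPM to 183 to 212 CPM (5.61 ± 0.10) may include reads of FCGR2B. FCGR1A, the high-affinity receptor, which lies elsewhere on the chromosome, fell instead, from 69.1 to 81.4 CPM to 30.5 to 35.8 CPM (-1.15 ± 0.07). FCER2, a receptor of IgE, was the other that fell (-1.01 ± 0.23), at the threshold.

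The 7 measured genes that follow each other from FCGR2A to FCRLB, at chr1:161505457-161728143 on GRCh38 (222.7 kb), all rose. In order, these are FCGR2A (chr1:161505457-161524048), HSPA6 (chr1:161524540-161526894), FCGR2C (chr1:161581339-161601220), HSPA7 (chr1:161606172-161608550), FCGR2B (chr1:161647243-161678654), FCRLA (chr1:161707229-161714352) and FCRLB (chr1:161721544-161728143). HSPA7 was at 3.16 to 3.54 CPM in DMSO and 204 to 268 CPM at 24 h. FCRLA and FCRLB, relatives of the Fc receptors known from B cells, rose from 0.586 to 1.06 CPM to 6.02 to 7.75 CPM and from 1.92 to 2.41 CPM to 4.95 to 6.46 CPM. The measured genes on either side did not rise: SDHC (-0.11 ± 0.05) before the stretch, and DUSP12 (-0.75 ± 0.06) and ATF6 (-0.13 ± 0.06) after it, none of them called. At 2 h none of the 7 was called, with log2 changes from -0.95 (FCRLB) to 0.01 (FCGR2C). The stretch was singled out after its values were seen.

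**Figure D4:**
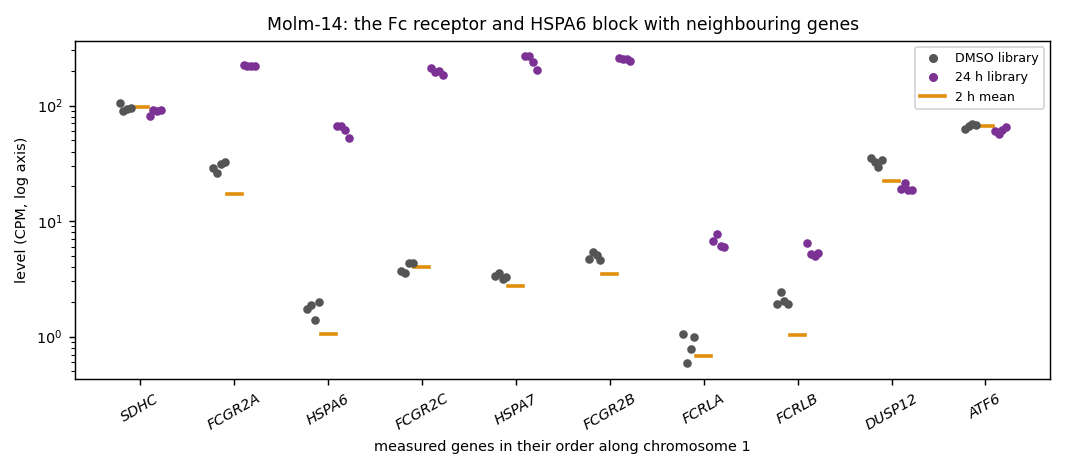
Level (CPM, log axis) of the 7 neighbouring genes from FCGR2A to FCRLB and of the measured neighbours SDHC, DUSP12 and ATF6, in their order along chromosome 1; grey points are DMSO libraries, purple points 24 h libraries and orange bars the 2 h means. The 24 h points stand above the DMSO points from FCGR2A to FCRLB, while the 2 h bars lie at or below the DMSO points there, and SDHC and ATF6 show no such gap.

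Some other surface and effector genes of phagocytes rose. Of 34 macrophage surface and scavenger genes, 14 rose and 2 fell (median 0.86), and 13 were higher at 24 h than at 2 h. Over all genes, 11.4% rose, 6.57% fell and 7.25% were higher at 24 h than at 2 h. CSF1R, the receptor of macrophage colony-stimulating factor, was at 7.22, 6.92, 6.75 and 7.0 CPM in DMSO, 11.8 ± 0.674 CPM at 2 h, then 89.6, 87.0, 89.1 and 86.4 CPM at 24 h. The adaptor TYROBP (DAP12) rose from 19.3 ± 1.11 to 115 ± 1.58 CPM, the checkpoint protein VSIR from 24.4 ± 1.08 to 172 ± 5.55 CPM, and the costimulator CD86 from 1.13 ± 0.213 to 14.2 ± 1.43 CPM. ADGRE5 (CD97) had already risen at 2 h (95.8 ± 4.34, 492 ± 33.3 and 530 ± 8.03 CPM). The 2 that fell were TREM1 and the chemokine receptor CCR2 (25.2 ± 1.24 to 11.6 ± 0.791 CPM). Of 25 integrin and adhesion genes, 9 rose and none fell (median 0.61), and 10 were higher at 24 h than at 2 h. ITGAX (CD11c) was at 6.22 to 6.59 CPM in DMSO, 7.55 ± 0.739 CPM at 2 h, then 40.0 to 49.6 CPM at 24 h. ITGAM (CD11b) rose from 5.56 to 6.57 CPM to 31.4 to 35.7 CPM, and SELPLG, a ligand of selectins, from 42.8 to 44.7 CPM to 213 to 230 CPM.

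Of 24 phagocyte oxidase, complement and lysozyme genes, 9 rose and none fell (median 0.60), beside 11.4% and 6.57% of all genes. The oxidase makes superoxide from a membrane core and cytosolic subunits. The cytosolic subunits NCF1 and NCF4 rose, whereas CYBB, the catalytic core, stayed at 0 to 0.248 CPM in both groups. NCF1 was at 30.5, 31.9, 31.5 and 29.8 CPM in DMSO and at 229, 240, 225 and 211 CPM at 24 h, and its reads may be shared with the pseudogenes NCF1B and NCF1C, which rose as well. Properdin (CFP) rose by 3.31 ± 0.10 and complement factor D (CFD) from 269 ± 16.9 to 884 ± 9.02 CPM. Lysozyme (LYZ) was at 97.6 ± 5.59 and 106 ± 3.08 CPM and was not called. Of 28 pattern recognition and inflammasome genes, 8 rose and none fell (median 0.50), among them NOD2 (2.08 ± 0.10) and NLRP1 (2.43 ± 0.08).

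Among 34 growth factor and cytokine receptors, 8 rose and none fell (median 0.50), beside 11.4% and 6.57% of all genes. TNFRSF1B, the second TNF receptor, was at 14.5 to 16.1 CPM in DMSO and 119 to 123 CPM at 24 h, with 12.6 ± 1.39 CPM at 2 h. IL10RA rose by 2.62 ± 0.08. FGFR3 peaked at 2 h (140 ± 7.21 CPM) and was at 28.6 ± 1.69 CPM at 24 h, beside 5.82 ± 0.597 CPM in DMSO. Of 20 cytokines and secreted factors, 5 rose and 9 fell (median -0.68). TNF was at 147, 136, 133 and 144 CPM in DMSO and 6.61, 6.79, 8.12 and 8.54 CPM at 24 h, with 7.69 ± 1.11 CPM at 2 h. ANGPT1, a ligand of the receptor TEK, fell in steps from 6.51 to 8.19 CPM to 1.77 ± 0.637 CPM at 2 h, then 0 to 0.19 CPM at 24 h. IL16 rose from 4.61 to 24.7 CPM as group means.

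Of 49 myeloid transcription factors, 15 rose and 1 fell (median 0.54). MAFA, a basic leucine zipper factor best known from pancreatic beta cells, had the largest rise on the log2 scale among the named genes: it was at 0.046, 0.26, 0.169 and 0.248 CPM in DMSO, 8.30 ± 1.03 CPM at 2 h, then 32.9, 32.5, 31.8 and 29.6 CPM at 24 h. RUNX3 (12.4 to 62.5 CPM), KLF6 (42.1 to 130 CPM) and KLF13 (86.7 to 272 CPM) rose, as group means. CEBPB fell (-1.03). Of 29 primary granule and progenitor genes, 5 rose and 2 fell, beside 11.4% and 6.57% of all genes.

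Part of the interferon response list rose, while few MHC class I genes were called. Of 49 interferon response genes, 17 rose and none fell (median 0.49), with 5 already higher at 2 h. STAT2, of the interferon-activated complex ISGF3, was at 36.1 to 40.9 CPM in DMSO, 64.8 ± 2.21 CPM at 2 h, then 117 to 132 CPM at 24 h. IRF9, its partner, was at the same level at both times (37.5 ± 1.67 and 35.7 ± 1.38 CPM, DMSO 10.3 ± 0.876 CPM). The DNA sensor IFI16 rose from 12.7 ± 0.861 CPM under DMSO to 36.8 ± 1.43 CPM at 24 h, with 7.88 ± 0.785 CPM at 2 h, which was not called. The letters GAAANNGAA, the core of the interferon-stimulated response element, were in 20 of 35 members with a window (57.1%). They were in 8.29% of all windows and in 6.67% of those of measured genes. They were in 5 of the 11 with a window that rose and in 15 of the 24 that were not called. Of 9 MHC class II genes, 4 rose from low levels, HLA-DRA from 0.521 to 0.787 CPM to 2.24 to 3.04 CPM. Of 20 MHC class I and peptide loading genes, 2 rose and 2 fell, beside 11.4% and 6.57% of all genes. HLA-E went up from 252 ± 2.82 to 551 ± 7.73 CPM and TAP2 went down (-1.36). PSME2, the other that fell, was at the threshold (-1.002 ± 0.045). Of 25 iron, heme and redox genes, 1 rose, HMOX1, and 2 fell, TXNRD1 and GSR.

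Among the largest changes named by rank, several have no list above. LSP1, a leukocyte actin-binding protein, was at 0.643, 0.716, 0.675 and 0.434 CPM in DMSO, 1.25 ± 0.275 CPM at 2 h, then 52.0, 50.1, 51.7 and 50.7 CPM at 24 h (6.17 ± 0.12). JPH2, a protein of junctional membranes in muscle, rose from 1.43 to 2.11 CPM to 70.1 to 76.3 CPM. PTGDS, a prostaglandin D2 synthase, and MEGF6 had risen at 2 h already (9.44 ± 1.08 and 8.98 ± 0.98 CPM) and were at 14.2 ± 1.19 and 16.1 ± 0.355 CPM at 24 h. PNCK, AGXT, COL24A1 and MMP19 rose to between 10.2 and 18.1 CPM as group means, from below 1 CPM. PSD3 was at 0 in all 4 DMSO libraries and at 7.18, 7.21, 8.90 and 0.127 CPM at 24 h, so replicate 4 stood with the controls. With the DMSO group set to a floor of 3 counts in sum, its level pooled over the 24 h libraries was at least 146-fold higher. Without replicate 4 it was at least 185-fold higher. These bounds rest on pooled reads and do not cover the spread between libraries, so they do not describe replicate 4. SNRNP25, a spliceosome protein, had 1 DMSO library apart, at 27.4 CPM beside 58.6 to 62.2 CPM, with 2.99 to 5.12 CPM at 24 h. Its libraries also varied widely at 2 h, at 55.6, 21.8, 33.1 and 3.71 CPM. BATF3 fell from 26.2 ± 1.86 to 3.41 ± 0.379 CPM, the host transcript MIR222HG from 7.39 ± 0.522 to 0.807 ± 0.106 CPM, and the secreted factors STC2 and INHBE from 38.1 ± 2.81 to 5.10 ± 0.575 CPM and from 13.1 ± 0.682 to 1.33 ± 0.283 CPM.

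The 10 largest rises and 10 largest falls were then set against OCIAML-3, to see where the response of Molm-14 differed. The difference in 24 h log2 fold change between the lines was called for 16 of the 20, against 17.8% of all genes in either direction, a share that the choice of genes by their size in Molm-14 favours. Of the 10 rises, 9 were larger in Molm-14, and JPH2 was not called. LSP1 started from 52.1 ± 3.81 CPM in OCIAML-3 and reached 425 ± 29.3 CPM, a smaller fold from a higher start (difference 3.14 ± 0.17). MAFA stayed at 0.183 ± 0.128 and 0.238 ± 0.0355 CPM in OCIAML-3. FCGR2B went from 24.8 ± 1.58 to 220 ± 2.51 CPM there (difference 2.50 ± 0.11). Of the 10 falls, 6 were deeper in Molm-14, 1 was deeper in OCIAML-3 (SPRY4, difference 1.52 ± 0.28) and 3 were not called (TNF, SNRNP25 and SLC6A9). SLC7A11 moved in opposite directions, from 18.0 ± 2.65 to 69.8 ± 2.80 CPM in OCIAML-3 (difference -5.04 ± 0.13). ASNS fell in both lines and more deeply in Molm-14 (-1.70 ± 0.10), with 88.4 ± 2.87 and 25.1 ± 0.185 CPM in OCIAML-3. CHAC1 was at 1.6 ± 0.174 and 1.34 ± 0.376 CPM there, low in both groups. COL24A1, JPH2, ANGPT1 and INHBE had 0 to 5 summed reads in an OCIAML-3 group, so their fitted difference depends on the prior count. That of PSD3 does so too, with 0 reads in Molm-14 DMSO, and 24 h replicate 4 stood apart there.

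**Figure D5:**
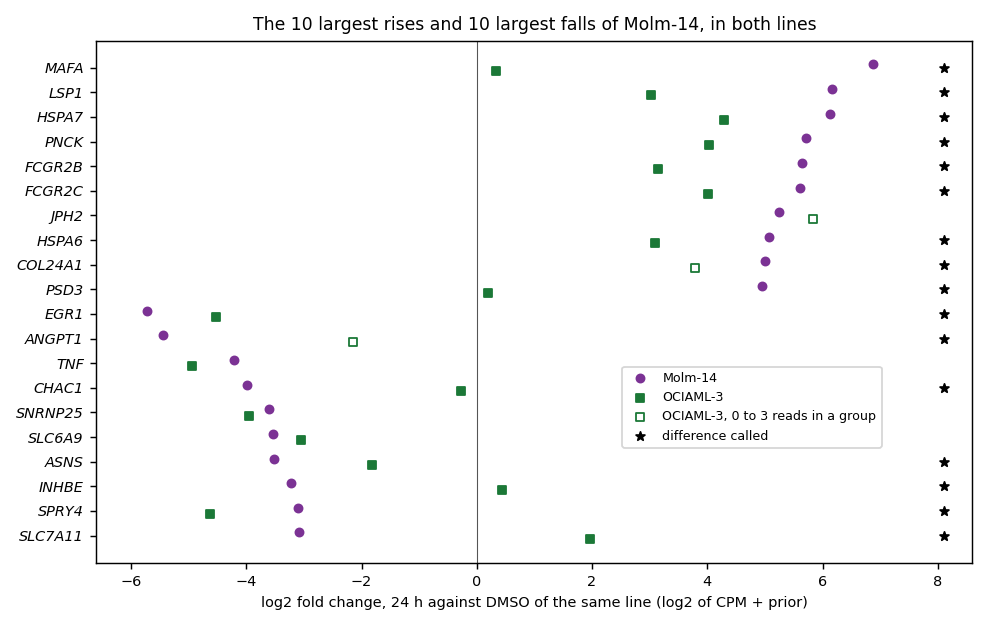
Log2 fold change at 24 h against DMSO of the same line (x axis, log2 of CPM plus the prior) for the 10 largest rises and 10 largest falls of Molm-14; purple circles are Molm-14, green squares OCIAML-3 (open where an OCIAML-3 group had 0 to 3 reads), and a star marks a called difference between the lines. MAFA and PSD3 are near 0 in OCIAML-3, and SLC7A11 lies on opposite sides of 0.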

How the data were processed

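Poly(A) RNA of the Molm-14 and OCIAML-3 lines was sequenced in 24 labelled samples. The deposited table holds log2 CPM for 13033 genes in 23 library columns, and the third OCIAML-3 library at 24 h was not analysed here. Per the submitters' processing notes, the tools included limma 3.38.3, edgeR 3.24.3, RSEM 1.3.3, STAR 2.7.8a and Trimmomatic 0.36, and the build was GRCh38. Not given in the sources used here are their order, the strand setting and the low-count filter. CPM was taken back from the deposited log2 values by subtracting a prior of 0.105 CPM. Effective library sizes were read from the spacing of low values, of which 74.9 to 82.7% up to 20 reads came out within 0.05 of a whole read.

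The log2 CPM were fitted in limma 3.58.1 (R 4.3.3) with 1 mean for each of the 6 groups over all 23 libraries and trended, robust moderation, and p-values were adjusted by Benjamini-Hochberg over all genes. The fit was tested on simulated data. Tables and plots were made with Python 3.11.15, numpy 2.4.6, pandas 2.3.3, scipy 1.17.1 and matplotlib 3.10.9. The genes named were the 15 largest rises and 15 largest falls without overlap whose higher group averaged 5 CPM or more, up to 5 called members per list (by lowest adjusted p), and a fixed set of RAS pathway, cell cycle and BCL2 family genes. Other genes were named to complete a list or as a contrast, after their values were seen. The members and lists were chosen with earlier results of these data known. Alternatives changed the scaling, the pseudocount (1 CPM), a minimum mean (1 CPM), the libraries fitted, the moderation, the replicate block and voom, and left out each library. Promoter windows were matched by symbol, 1 per gene. Values of some measured genes are not reported here.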

Additional observations from a re-analysis of the deposited data

Results flagged for a closer look

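Single libraries stood apart from the other 3 of their group for 18 of 419 gene and group combinations checked (4.3%), where chance alone gives about 1 in 20. SNRNP25 was low in DMSO replicate 1, at 27.4 CPM beside 58.6 to 62.2 CPM. ETV4 was low in 24 h replicate 1 (3.23 CPM, others 4.81 to 5.08 CPM), and ITGA2B was at 0 in DMSO replicate 3 (others 0.26 to 0.31 CPM). HOXB3 was high in DMSO replicate 2, at 0.391 CPM. In DMSO, CDK4 (278 CPM, replicate 3), MCM4 (721 CPM, replicate 2), IARS1 (405 CPM, replicate 1), GABARAP (50.1 CPM, replicate 3) and PTPRC (207 CPM, replicate 2) each had a low library. At 24 h, MCM4 (282 CPM, replicate 3), BRCA1 (39.8 CPM, replicate 1), GPT2 (23.6 CPM, replicate 2), GARS1 (106 CPM, replicate 1), YPEL5 (72.5 CPM, replicate 1) and CD300A (49.6 CPM, replicate 4) each had a low one. CD36 (122 CPM, replicate 4), ABCA1 (6.75 CPM, replicate 1) and LILRB4 (96.3 CPM, replicate 4) had a high one at 24 h.

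Of the 10 largest rises and 10 largest falls in Molm-14, 16 genes had a 24 h response that differed between the lines by a limma test of the difference itself, as 17.8% of all genes did. The log2 fold change in Molm-14 minus that in OCIAML-3 was 6.54 for MAFA, 4.75 for PSD3, 3.14 for LSP1, 2.50 for FCGR2B, 1.98 for HSPA6, 1.84 for HSPA7, 1.67 for PNCK, 1.59 for FCGR2C, 1.52 for SPRY4 and 1.22 for COL24A1. The value for PSD3 depends on the prior count, with 0 reads in Molm-14 DMSO, and on 24 h replicate 4. It was -5.04 for SLC7A11, -3.73 for CHAC1, -3.66 for INHBE, -3.31 for ANGPT1, -1.70 for ASNS and -1.19 for EGR1.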

How the results depend on the processing

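Under all alternatives run, the counts of called genes over the whole table stayed within 1.5 times their reported value. Of the list counts, 43 values moved by more and 1269 did not, and 28 lists kept every count. Those that moved differed by 1 gene, apart from the mitosis list, where 18 became 11 with library totals or voom. Among them, the Fc receptor list had 1 gene lower in place of 2. Leaving out 1 library at a time gave 2325 to 2374 genes at 24 h against DMSO (1468 to 1503 higher, 853 to 876 lower), 1378 to 1417 at 24 h against 2 h (940 to 965 higher, 438 to 452 lower) and 15 to 16 called line differences. With the replicate block the counts were 2336 and 1383, beside 2337 and 1385 without it. Same-numbered libraries deviated together with correlations of 0.025, 0.033, -0.016 and 0.063, so the numbers were not taken to pair them. Changes of sign occurred for 3 genes near 0, none of them called: DUSP6 was 0.050 with library totals, 0.017 with median-of-ratios scaling and 0.047 with voom; PHLDA1 was 0.038, 0.005 and 0.042, and with 1 library left out it ran from -0.140 to 0.044 (0.006 without 24 h replicate 2, 0.044 without DMSO replicate 4); BCL2L1 was 0.046, 0.013 and 0.043. The cause was not tested beyond the scaling itself. Of 210 named genes, 195 kept their direction and their side of the threshold under every alternative run. Called genes lost under at least 1 alternative were BIRC5, CCNB1, CDK4, DAB2IP, FANCI, HLA-DRB1, HOXB3, ITGA2B, MCM3, PSME2, RRAGD and TLR4. PSD3 alone moved by over 1.5 times with 1 library, from 4.95 to 6.23 on the log2 scale without 24 h replicate 4. Genes with few reads are limited by depth.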

Other observations

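Values of S100 genes, which encode small calcium-binding proteins and lie on chromosome 1, are given here; they were chosen after their values were seen and come from no fixed list. S100A4 was at 59.4, 58.4, 60.5 and 64.2 CPM in DMSO, 174 ± 5.22 CPM at 2 h and 588, 588, 593 and 589 CPM at 24 h (3.28 ± 0.04). S100A6 rose from 48.3 ± 1.13 to 250 ± 11.7 CPM and S100A10 from 37.5 ± 1.67 to 166 ± 9.90 CPM, and both had risen at 2 h. S100A11, next to S100A10 among the measured genes, was at 63.5 ± 4.04 and 108 ± 2.42 CPM (0.77 ± 0.05) and was not called. S100A8 rose by 1.01 ± 0.09, at the threshold, while its partner S100A9 was at 22.9 ± 1.33 and 19.8 ± 0.656 CPM and was not called. S100A13 (1.42 ± 0.09) and S100A1 (1.47 ± 0.13) rose as well, but these genes overlap and their reads may be shared.

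A few further single genes were also chosen after their values were seen. NDRG1 was at 14.3, 13.4, 12.9 and 13.5 CPM in DMSO, 22.2 ± 1.49 CPM at 2 h and 242, 241, 245 and 238 CPM at 24 h. MIR210HG rose by 4.37 ± 0.18, ADM, which encodes adrenomedullin, by 2.52 ± 0.18, and BHLHE40 by 2.00 ± 0.05. EPAS1 went from 2.44 ± 0.756 to 30.5 ± 2.74 CPM.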
